A study of Macaca mulatta with 12 samples.

Results

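The miR-34 and miR-449 family was followed through 12 small RNA profiles of 8 rhesus macaque (Macaca mulatta) tissues. Its members were chosen by name, as the pre-miRNAs mml-mir-34a, mml-mir-34b, mml-mir-34c, mml-mir-449a and mml-mir-449b, and the rule used no measured value. These were 5 of the 832 pre-miRNAs read from the list that the study compiled, and 9 of the 1219 distinct mature sequences of that list were theirs. There were 2 profiles each of kidney, large intestine, small intestine and muscle, and 1 each of lung, liver, occipital lobe and spinal cord. All samples were untreated tissue of wild-type animals with an age of 36 months. The study used 2 animals, and which animal gave which profile is not stated in the sources used here. Spinal cord and occipital lobe were analysed as 1 neural group, so that 7 groups were compared. Each profile held between 22118095 and 25579064 reads. Levels are given in RPTM, reads per 10000000 valid reads, in which 1 read was worth 0.391 to 0.452 RPTM. A count of 0 allowed a level of up to 1.17 to 1.36 RPTM, the level of 3 reads. Intervals and these limits cover counting error only, with a confidence level of 95%. The tissues are mixtures of cell types, and fewer cells of a type cannot be told apart from less RNA per cell.

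A miRNA recognizes its targets mainly through the seed, bases 2 to 8 of the mature sequence, and miRNAs with the same seed are counted as 1 family. miR-34a is transcribed from its own gene, which the tumour suppressor p53 activates, and it is made in many cell types. miR-34b and miR-34c come from 1 shared transcript, and the miR-449 miRNAs are made from an intron of CDC20B. miR-34b, miR-34c and the miR-449 miRNAs are known for the multiciliated cells of the airway, where they lower Notch signalling and CP110, a centriole protein, while the cell forms its cilia. Multiciliated ependymal cells also line the ventricles of the brain and the central canal of the spinal cord. The profiles hold small RNAs only, so the cells that made the reads were not identified.

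The mature sequences of the 5' arms are shown first because they carry the property that joins the family. They were copied from the study's list of pre-miRNAs, except that of mml-mir-34b. The list names no mature sequence on the 5' arm of mml-mir-34b, and the most abundant read of that arm stands for it here. Capitals mark the seed, and sequences run from 5′ to 3′.

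mml-mir-34a-5p: uGGCAGUGucuuagcugguugu
mml-mir-34b, 5' arm: aGGCAGUGucauuagcugauug
mml-mir-34c-5p: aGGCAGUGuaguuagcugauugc
mml-mir-449a-5p: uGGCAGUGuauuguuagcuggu
mml-mir-449b-5p: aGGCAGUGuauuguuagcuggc

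The 5 sequences had the same seed, GGCAGUG. Of all mature sequences read from the list, 4 had this seed, and all 4 belonged to the family. Beyond the seed the family fell into pairs when the sequences were compared from the first base without gaps. The 5' arm of mml-mir-34b and mml-mir-34c-5p were identical at 20 of 22 bases, and so were mml-mir-449a-5p and mml-mir-449b-5p. Counted in this way, mml-mir-34a-5p shared 15 of 22 bases with mml-mir-449a-5p, 12 with the 5' arm of mml-mir-34b and 11 with mml-mir-34c-5p. A base more or less after the seed shifts all later bases in such a count. It therefore does not show which member mml-mir-34a-5p is nearest to.

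The same pairs were neighbours in the genome. In the Mmul_8.0.1 build, mml-mir-34b lay at 104382402 to 104382485 and mml-mir-34c at 104382905 to 104382981, on the plus strand of 1 chromosome with 419 bases between them. mml-mir-449a lay at 56077670 to 56077760 and mml-mir-449b at 56077784 to 56077880, on the minus strand of another chromosome with 23 bases between them. mml-mir-34a stood alone, at 8320927 to 8321036 on the minus strand of yet another chromosome. In RefSeq genes of another assembly, T2T-MMU8v2.0, MIR34A is on chromosome 1, MIR34B and MIR34C are on chromosome 14 within the span of BTG4, and MIR449A and MIR449B are on chromosome 6 within the span of CDC20B. The gene next to MIR449B there is MCIDAS, which encodes a regulator of the multiciliated cell fate.

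Before the levels were compared, the tissues were checked against miRNA markers. Neuron markers (miR-9, miR-124, miR-128 and others) summed to 496190 RPTM in occipital lobe, to 320241 RPTM in spinal cord, and to at most 8822 RPTM in the other 10 profiles. Glia markers (miR-219 and miR-338) summed to 27375 RPTM in spinal cord, 5363 RPTM in occipital lobe and at most 582 RPTM elsewhere. Epithelial markers (the miR-200, miR-183 and miR-375 groups and others) summed to 99843 RPTM in lung, 50497 RPTM in spinal cord and 2528 RPTM in occipital lobe, and to between 15470 and 219315 RPTM in the other profiles. Immune cell markers summed to 10575 RPTM in lung and at most 3203 RPTM elsewhere. Endothelial miR-126 was also highest in lung, with 9051 RPTM against at most 2049 RPTM elsewhere. The part of these cell types in the results was not tested. The 2 neural profiles therefore differed in the sums of their glia and epithelial markers, and each member is given in both. These sums give most weight to abundant miRNAs. In the edgeR comparison given below, 7 of 12 tested epithelial markers were called lower in neural tissue and 0 higher. Their median log2 fold change was -6.27. That comparison pools both neural profiles, and which cells gave the epithelial sum in spinal cord was not tested.

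mml-mir-34a-5p was found in every profile and was highest in spinal cord. Its level was 616 RPTM in spinal cord (interval 585 to 648, 1473 reads), 81.3 RPTM in occipital lobe (70.0 to 93.8), 72.1 RPTM in lung (61.6 to 84.0) and 50.8 RPTM in liver (42.3 to 60.5). It was 54.2 ± 1.85 RPTM in kidney, 25.9 ± 9.10 RPTM in large intestine, 23.5 ± 10.4 RPTM in muscle and 17.5 ± 2.72 RPTM in small intestine (SD, n = 2 each). Spinal cord stood apart, 7.58-fold above occipital lobe, the next profile. Occipital lobe and lung had overlapping counting intervals, as did kidney and liver. The profiles of muscle overlapped in range with those of large intestine and of small intestine.

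mml-mir-34c-5p was the most abundant member in lung. Lung had 1221 RPTM (2793 reads) and spinal cord 210 RPTM (192 to 230, 503 reads). Liver followed with 29.0 RPTM (22.7 to 36.6) and occipital lobe with 12.2 RPTM (8.09 to 17.6). Small intestine had 7.77 and 7.59 RPTM, muscle 3.75 and 8.28 RPTM, large intestine 2.26 and 7.65 RPTM, and kidney 3.91 and 0.413 RPTM. Lung was 5.80-fold above spinal cord and 160-fold above the median of the 10 profiles that remain without these 2. The 4 tissues with 2 profiles overlapped in range, except that both small intestine profiles were above both kidney profiles. Of its reads in all profiles, 79.9% came from lung and 14.4% from spinal cord.

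The 5' arm of mml-mir-34b had the same order at its top. It had 317 RPTM in lung (294 to 341, 725 reads) and 32.2 RPTM in spinal cord (25.4 to 40.3, 77 reads). The highest of the other profiles was small intestine 1 with 4.50 RPTM, and no read was found in occipital lobe or kidney 2. Lung was 9.84-fold above spinal cord. Within a profile, the arm gave 20.6% of the summed mml-mir-34b and mml-mir-34c-5p reads in lung (exact interval 19.28 to 21.98%) and 13.3% in spinal cord (10.6 to 16.3%). Of the 2 miRNAs of this transcript, mml-mir-34c-5p was therefore the more abundant in both.

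mml-mir-449a-5p was found mostly in lung, which gave 90.7% of its reads. It had 77.0 RPTM in lung (66.003 to 89.2, 176 reads). The next was occipital lobe with 2.17 RPTM (5 reads), and lung was 35.4-fold above it. Spinal cord had 2 reads, kidney 2 and small intestine 1 had 4 reads each, large intestine 1 had 2 reads, muscle 1 had 1 read, and the other profiles had none. mml-mir-449b-5p had 26 reads in lung (11.4 RPTM, 7.43 to 16.7), 5 reads in occipital lobe (2.17 RPTM, 0.706 to 5.07) and none in the other 10 profiles.

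The proportion of mml-mir-449a-5p to mml-mir-34c-5p was lower in the spinal cord library than in the lung library. The other members of these clusters, mml-mir-449b-5p and the 5' arm of mml-mir-34b, are not part of this proportion. mml-mir-449a-5p gave 5.93% of the summed mml-mir-449a-5p and mml-mir-34c-5p reads in lung (176 of them against 2793, exact interval 5.11 to 6.84%). In spinal cord it gave 0.396% (2 against 503, 0.0480 to 1.42%). These intervals do not overlap, and with 1 profile of each tissue they compare the 2 libraries only. In occipital lobe the share was 15.2% (5 against 28, 5.11 to 31.9%), an interval that overlaps that of lung. The lower value was therefore not shared by both neural profiles. Liver had 0 against 72 (0 to 4.99%), an interval that also lies below that of lung, so that a low share was not particular to spinal cord. In the remaining profiles apart from kidney 2 the intervals overlapped that of lung. In kidney 2 there were 4 reads of mml-mir-449a-5p and 1 of mml-mir-34c-5p. In both neural profiles the miR-449 reads numbered at most 5 for each arm.

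**Figure D1:**
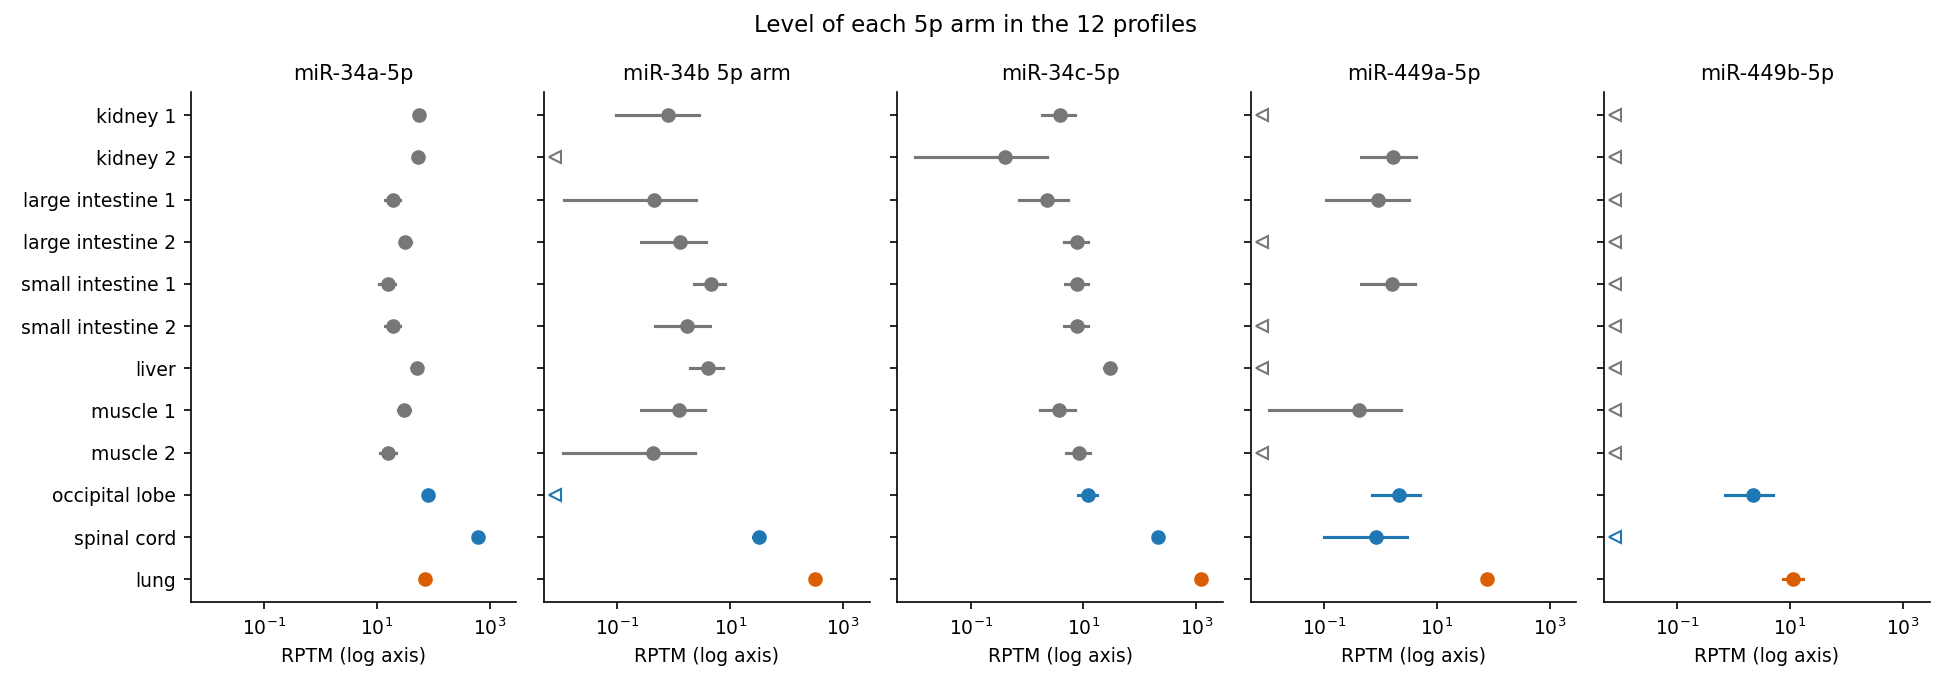
Level of the 5' arms of the 5 members in the 12 profiles, in RPTM on a log axis, with 95% counting intervals as bars and open triangles for profiles with 0 reads. Lung (orange) is the highest profile of 4 members, and spinal cord (blue, with occipital lobe) is the highest for mml-mir-34a-5p at 616 RPTM.

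Across the 12 profiles, the log2 levels (with 1 RPTM added) of the 5' arm of mml-mir-34b and of mml-mir-34c-5p had a Pearson r of 0.94. The r of mml-mir-34c-5p with mml-mir-449a-5p was 0.68, and its r with mml-mir-34a-5p was 0.57. mml-mir-34a-5p and mml-mir-449a-5p had an r of 0.22. These values describe 12 profiles in which 1 or 2 lie far above the rest, spinal cord for mml-mir-34a-5p, lung for mml-mir-449a-5p and both for the others. The points share their library and depth.

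The 3' arms were rare. mml-mir-34a-3p had 30 reads in all, 20 of them in spinal cord, 4 in occipital lobe, 4 in muscle 1 and 2 in lung. mml-mir-34b-3p had 24 reads in lung and 3 in spinal cord, and mml-mir-34c-3p had 30 reads in lung and 3 in spinal cord. Both were at 0 in the other 10 profiles. No read of mml-mir-449a-3p or mml-mir-449b-3p was found in any profile. In spinal cord, mml-mir-34a-3p gave 1.34% of the reads of both arms (exact interval 0.820 to 2.06%).

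The 3' arm reads often did not start where the listed mature sequence starts. The most abundant reads are shown because they set the seed, which is in capitals.

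mml-mir-34a-3p, listed: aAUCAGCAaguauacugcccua
mml-mir-34a-3p, most abundant read: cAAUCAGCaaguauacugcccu
mml-mir-34b-3p, listed: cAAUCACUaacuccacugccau
mml-mir-34b-3p, most abundant read: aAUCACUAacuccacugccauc
mml-mir-34c-3p, most abundant read: aAUCACUAaccacacggccag

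For mml-mir-34a-3p, 28 of 32 exactly matching reads began 1 base before the listed start. For mml-mir-34b-3p, 3 of 29 reads began at the listed start and 16 began 1 base later. A read that began 2 bases later, with the seed UCACUAA, was seen 8 times, 5 of them in lung and 3 in spinal cord. The read that began 1 base later has the seed AUCACUA, which is also the seed of mml-mir-34c-3p, while the listed mml-mir-34b-3p has another. These counts are small, and the interval of the share that began 1 base later was 37.5 to 71.6%.

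Since all 5' arms share the seed, their reads were summed over the family. Only exactly matching reads with GGCAGUG at bases 2 to 8 entered this sum. It came to 1867 RPTM in lung, 776 RPTM in spinal cord, 82.3 RPTM in liver and 81.7 RPTM in occipital lobe. The other 8 profiles had between 22.2 and 53.2 RPTM. In the sum, the members took different shares. mml-mir-34c-5p gave 75.4% of it in lung (Wilson interval 74.1 to 76.7%), the 5' arm of mml-mir-34b 15.7%, mml-mir-449a-5p 4.31%, mml-mir-34a-5p 3.72% and mml-mir-449b-5p 0.796%. In spinal cord mml-mir-34a-5p gave 69.2% (67.1 to 71.3%) and mml-mir-34c-5p 26.8% (24.9 to 28.9%). mml-mir-34a-5p had the largest share in all profiles except lung, from 49.3% in small intestine 1 (38.3 to 60.4%, 75 reads) to 95.9% in kidney 2 (90.8 to 98.2%, 122 reads).

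**Figure D2:**
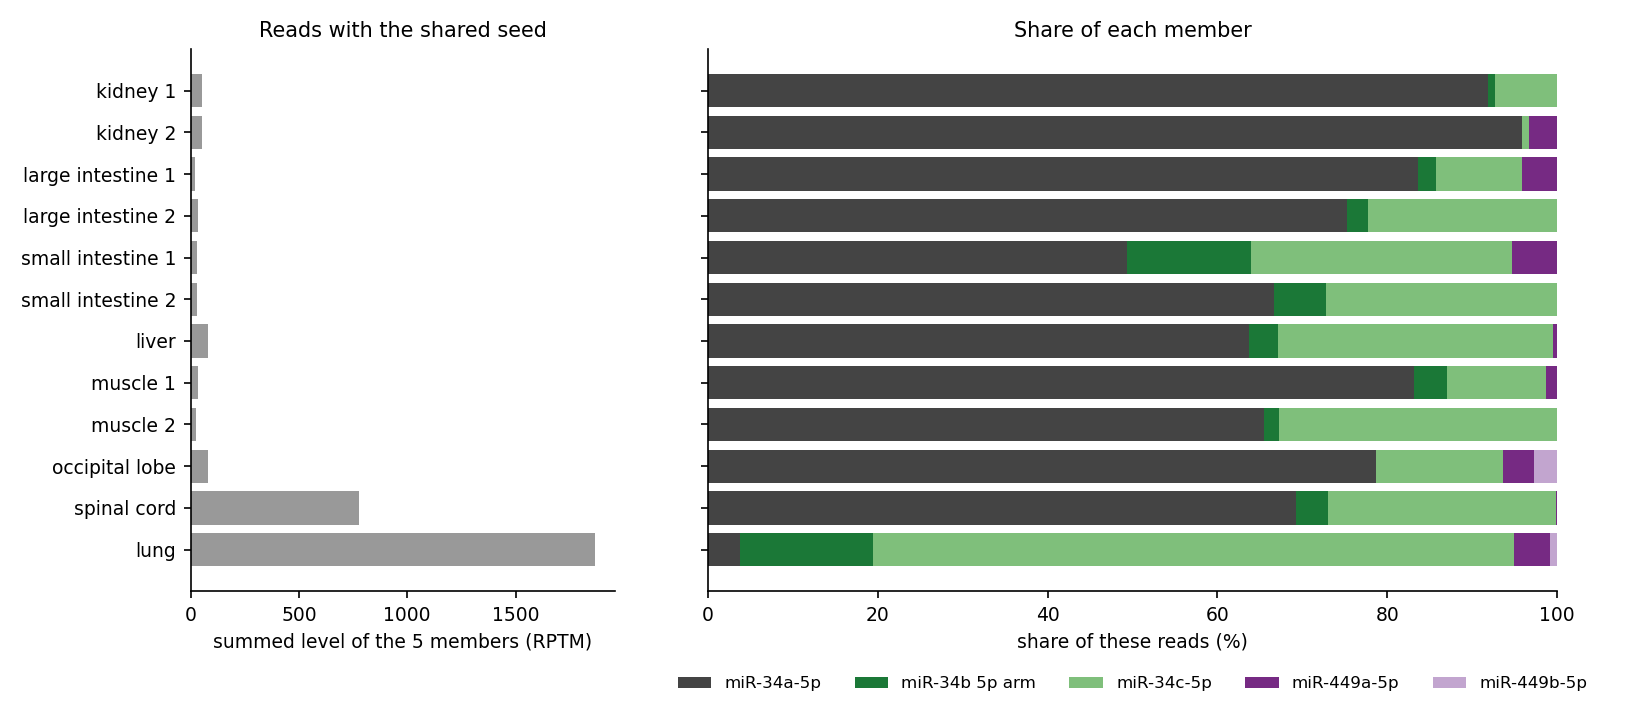
Left, summed level (RPTM, linear axis from 0) of exact reads with the shared seed in each profile. Right, the share (%) of each member in that sum, which in lung is 75.4% mml-mir-34c-5p and in the other profiles mostly mml-mir-34a-5p.

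To ask which tissues differed from the rest, all miRNAs whose level averaged 5 RPTM or more, with an SD of 1 RPTM or more, were fitted with edgeR's quasi-likelihood test, and Benjamini-Hochberg adjusted p-values under 0.05 were called. Each group was compared with the mean of the other 6. Of the 9 listed mature sequences of the family, 3 passed this filter, namely mml-mir-34a-5p, mml-mir-34c-5p and mml-mir-449a-5p. mml-mir-449a-5p passed only through its level in lung, as did the 5' arm of mml-mir-34b, which was fitted separately after its reads had been seen. Lung enters every contrast with the mean of the other groups. The changes of these 2 arms in these fits are therefore given as descriptions and not as calls. Lung had 1 profile, whose spread was assumed to be that of the other groups. The contrasts of lung and of neural tissue share their control profiles, and each is given with its own values. Nothing in the labels says that the 2 profiles of a tissue came from separate animals, so that the spread between them may be technical. The 2 profiles of the neural group are of different tissues, and their spread also holds the difference between these tissues. The p-values measure both kinds of spread together, also for lung.

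In lung, 24 of 371 miRNAs were called higher (6.47%) and 33 lower (8.89%). mml-mir-34c-5p was higher by 6.19 ± 0.71 on the log2 scale (SE, edgeR adjusted p = 7.46e-05). mml-mir-34a-5p differed by -0.01 ± 0.78 (adjusted p = 0.9998) and was not called. The fitted change of mml-mir-449a-5p was 6.76 ± 0.98, and that of the 5' arm of mml-mir-34b was 6.66 ± 0.93. mml-mir-449a-5p had 18 reads outside lung and could be tested in the fit of all 598 miRNAs with at least 10 reads, a minimum it met without lung. There it was called higher by 6.99 ± 0.85, as were 9.20% of these miRNAs. The p-value of mml-mir-449a-5p in that fit was far below that of the main fit at a similar SE and is not given. The call rests on this p-value, so that the change is to be read as a description. mml-mir-34b-3p, mml-mir-34c-3p and mml-mir-449b-5p had 3, 3 and 5 reads outside lung, and no test of them is given.

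In neural tissue, 162 of 371 miRNAs were called higher (43.7%) and 90 lower (24.3%). mml-mir-34a-5p was called higher, by 1.95 ± 0.50 (adjusted p = 0.00372). This call rested on spinal cord, since without that profile the change was 0.25 (adjusted p = 0.694). mml-mir-34c-5p differed by 1.43 ± 0.67 (adjusted p = 0.0751) and was not called. Its change was -1.32 without spinal cord (adjusted p = 0.132) and 2.31 without occipital lobe (adjusted p = 0.00193), and without lung it was 2.53 (adjusted p = 0.00727). The fitted change of mml-mir-449a-5p was -0.20 ± 0.95, and that of the 5' arm of mml-mir-34b was 0.92 ± 0.92. Both are given as descriptions, since lung is among the groups compared with here. Without lung the change of mml-mir-449a-5p was 0.94. mml-mir-34a-3p had 6 reads outside neural tissue, and no test of it is given.

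Between lung and neural tissue, 72 of 371 miRNAs were called higher in lung (19.4%). mml-mir-34c-5p was higher in lung by 4.08 ± 1.11 (adjusted p = 0.00926). The fitted differences of mml-mir-449a-5p and of the 5' arm of mml-mir-34b were 5.97 ± 1.49 and 4.92 ± 1.44. Among the 598 miRNAs with at least 10 reads, mml-mir-449a-5p was called higher in lung by 6.33 ± 1.31, as were 16.2% of these miRNAs. This call has the same limit as that in lung. mml-mir-34a-5p differed by -1.68 ± 0.95 (adjusted p = 0.155). This difference was -2.43 without occipital lobe (adjusted p = 0.0156) and 0.016 without spinal cord (adjusted p = 0.988).

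**Figure D3:**
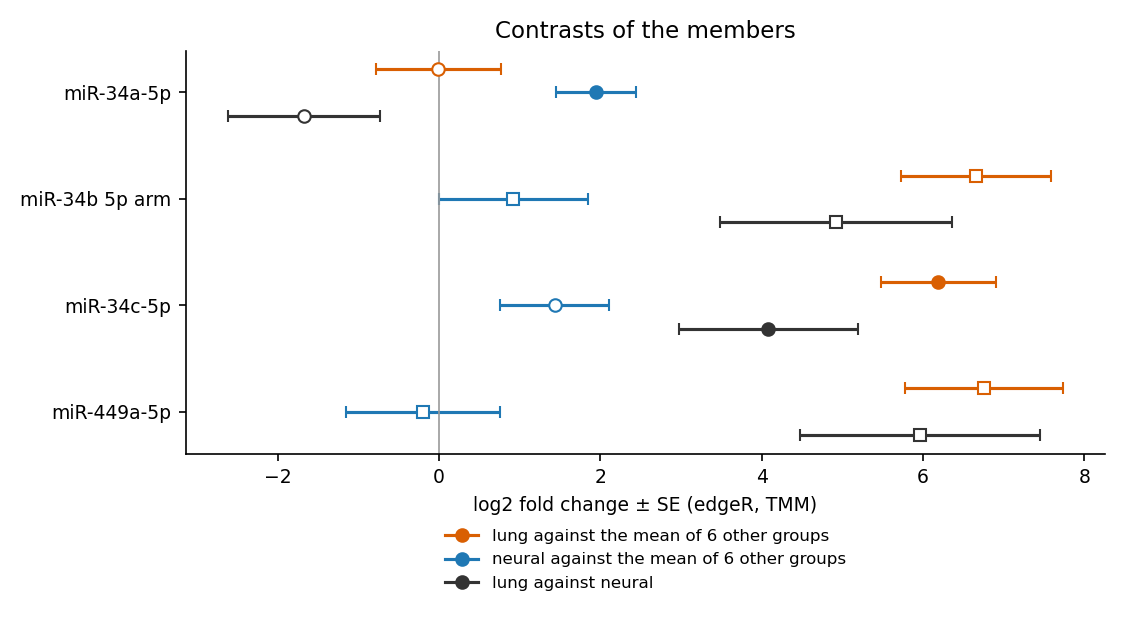
Log2 fold changes with SE of 4 members from edgeR with TMM factors, for lung and neural tissue each against the mean of the 6 other groups, and for lung against neural tissue. Filled circles have an adjusted p under 0.05, and open squares are members that passed the filter only through lung, shown without a call. mml-mir-34a-5p is filled in the neural contrast and mml-mir-34c-5p in both contrasts of lung.

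In the other 5 groups 1 member was called, mml-mir-34c-5p, which was lower in kidney by 3.47 ± 1.03 on the log2 scale (log2 fold change -3.47, adjusted p = 0.0349). Of all 371 miRNAs, 4.58% were called lower there. The kidney profiles had 10 and 1 reads of it. The call was lost when kidney 1 (-5.54, adjusted p = 0.137), kidney 2 (-2.58, adjusted p = 0.333), large intestine 2 (-3.17, adjusted p = 0.0944), lung (-2.52, adjusted p = 0.117), muscle 2 (-3.26, adjusted p = 0.0920) or small intestine 1 (-3.36, adjusted p = 0.0982) was left out.

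TMM factors and valid reads scaled the profiles differently. TMM factors ranged from 0.555 in large intestine 2 to 2.35 in spinal cord, and with valid reads in their place the log2 fold changes of all miRNAs shifted by a median of 1.15 in neural tissue and 0.65 in lung. On that scale the median log2 fold change of all miRNAs in neural tissue was 1.97, and 232 of 371 were called higher. mml-mir-34a-5p was higher there by 3.28 and mml-mir-34c-5p by 2.77 (adjusted p = 0.00642), both above this median. In lung the change of mml-mir-34a-5p was 0.63 (adjusted p = 0.625), about the size of the shift.

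A ratio of 2 members within a profile needs no such scaling. The log2 ratio of mml-mir-34c-5p to mml-mir-34a-5p, with 0.5 reads added to each, was 4.08 in lung, -1.55 in spinal cord and -2.72 in occipital lobe. Among the remaining 9 profiles it ranged from -6.42 in kidney 2 to -0.80 in liver. Lung had the highest of the 12 ratios to mml-mir-34a-5p for mml-mir-34b-3p, mml-mir-34c-5p, mml-mir-449a-5p and mml-mir-449b-5p. The log2 ratio of the 5' arm of mml-mir-34b was 2.13 in lung and at most -1.74 elsewhere, and that of mml-mir-449a-5p was 0.09 in lung and at most -3.10 elsewhere. Lung was thus the 1 profile in which the 5' arm of mml-mir-34b and mml-mir-34c-5p exceeded mml-mir-34a-5p. The 176 reads of mml-mir-449a-5p there did not differ from the 165 of mml-mir-34a-5p beyond counting error.

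The ratios of the 2 neural profiles were set against the other 10 by an exact permutation test (two-sided, 66 arrangements, smallest possible p = 0.0152). The mean log2 ratio of mml-mir-34c-5p to mml-mir-34a-5p was -2.13 in neural tissue and -1.82 ± 2.69 in the others (SD, n = 10, exact p = 0.818). For mml-mir-449a-5p it was -7.15 against -5.38 ± 2.52 (exact p = 0.394). Over the 6 ratios tested, which included those of both arms of mml-mir-34a and of mml-mir-34c, the adjusted p-values were between 0.455 and 0.818. No difference was called, but a single ratio at the smallest possible p could not be called after this adjustment. mml-mir-34b-3p, mml-mir-34c-3p and mml-mir-449b-5p had reads in 2 profiles each, and mml-mir-34a-3p in 4. In the other profiles their ratios reflect the count of the partner alone. The test therefore cannot show that the ratios were alike.

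**Figure D4:**
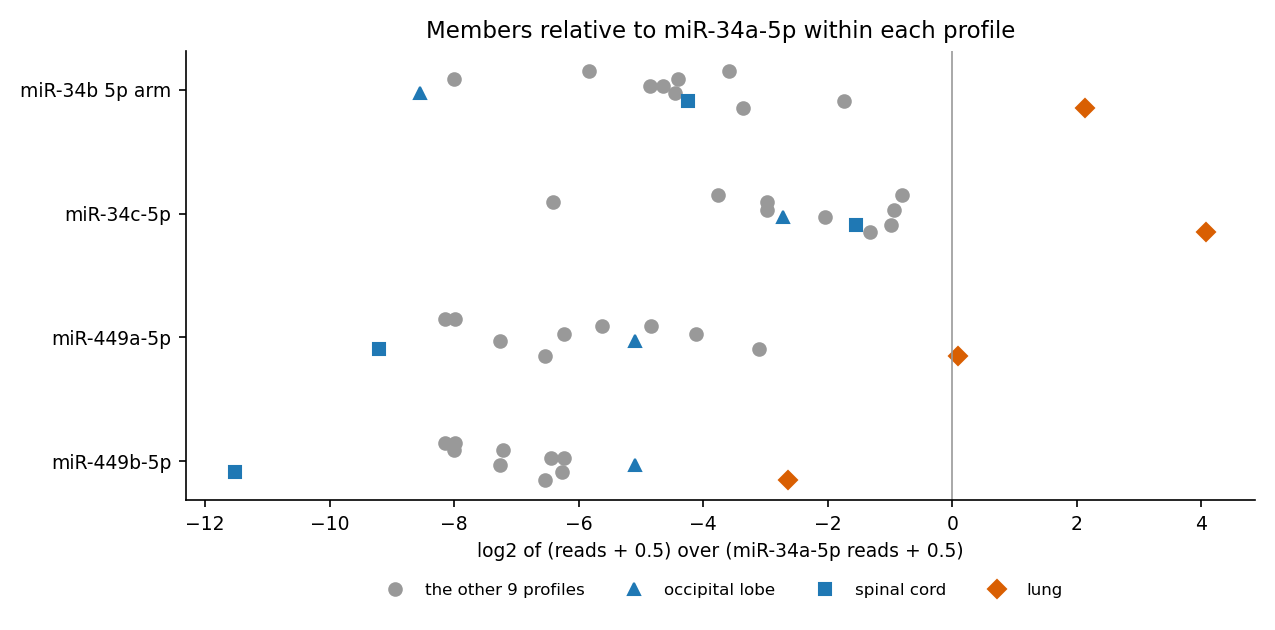
Log2 ratio of 4 members to mml-mir-34a-5p in each profile, with 0.5 reads added to both counts. Lung (orange diamonds) is the highest profile in each line, at 4.08 for mml-mir-34c-5p, and both neural profiles (blue) lie below it.

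The reads of a member differed in their ends as well as in their number. The abundant reads of mml-mir-34b and mml-mir-34c are shown because their 3' ends differed between lung and spinal cord. Capitals mark a 3' base that the pre-miRNA does not have at that place.

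mml-mir-34b, 5' arm, 22 bases: aggcagugucauuagcugauug
mml-mir-34b, 5' arm, 23 bases: aggcagugucauuagcugauugu
mml-mir-34b, 5' arm, with added base: aggcagugucauuagcugauugC
mml-mir-34c-5p, 21 bases: aggcaguguaguuagcugauu
mml-mir-34c-5p, 22 bases: aggcaguguaguuagcugauug
mml-mir-34c-5p, 23 bases: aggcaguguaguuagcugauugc
mml-mir-34c-5p, with added base: aggcaguguaguuagcugauugA

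Of the exact mml-mir-34c-5p reads with the listed start, 67.5% ended before the listed 3' end in lung (Wilson interval 65.9 to 69.1%, 2174 of 3220 reads). This share was 21.3% in spinal cord (17.9 to 25.1%, 106 of 498 reads), 7.58% in liver (3.28 to 16.5%, 66 reads) and 34.8% in small intestine 1 (18.8 to 55.1%, 23 reads). In occipital lobe it was 0 of 28 reads (upper bound 12.1%). The form of 21 bases made up 29.9% of the reads in lung and 11.04% in spinal cord, and the form of 23 bases 30.7% and 74.1%. On the 5' arm of mml-mir-34b, the form of 22 bases made up 53.3% in lung and 5.63% in spinal cord (358 of 672 and 4 of 71 reads), and the form of 23 bases 39.3% and 94.4%. mml-mir-34a-5p ended before the listed 3' end in 25.2% of reads in lung (19.0 to 32.4%) and 9.89% in spinal cord (8.38 to 11.7%). In the other profiles this share ranged from 1.56% in muscle 1 (64 reads) to 31.8% in small intestine 2 (44 reads). Over the 236 tested miRNAs with at least 20 such reads in both profiles, the share in lung minus that in spinal cord had a median of 0.933 percentage points and quartiles of -2.43 and 5.59. Both profiles are single libraries, and the difference was not tested over samples.

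mml-mir-449a-5p in lung had 2 main lengths. The form of 22 bases made up 48.4% of 184 exact reads, and a form of 20 bases made up 43.5%.

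**Figure D5:**
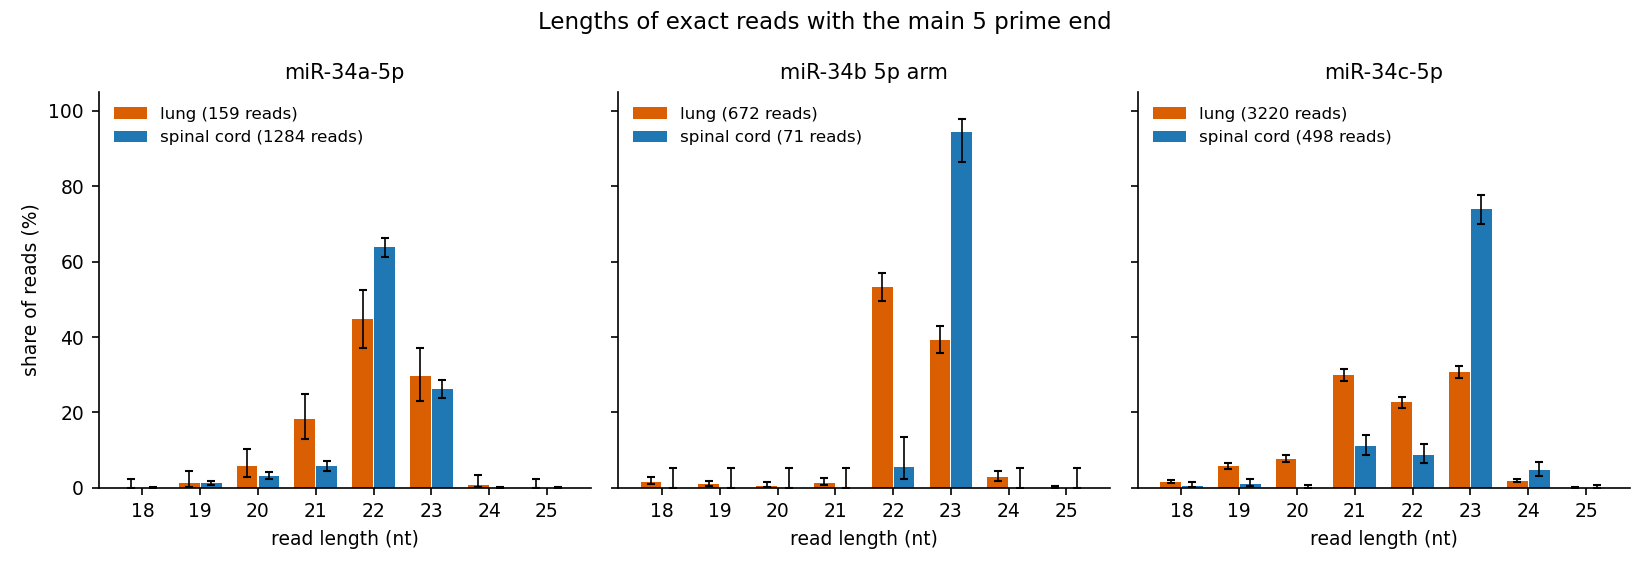
Lengths (nt) of exact reads with the main 5' end of mml-mir-34a-5p, the 5' arm of mml-mir-34b and mml-mir-34c-5p, as a share (%) of these reads in lung (orange) and spinal cord (blue), with 95% Wilson intervals. The reads of 23 bases of mml-mir-34c-5p make up 30.7% in lung and 74.1% in spinal cord.

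The 5' ends decide the seed. mml-mir-34c-5p began at its listed start in 97.9% of 3997 exact reads and mml-mir-449a-5p in 205 of 205. On the 5' arm of mml-mir-34b, 9.90% of 859 reads began 1 base earlier (Wilson interval 8.07 to 12.1%), with the seed AGGCAGU. mml-mir-34a-5p began 1 base later in 10.5% of 2599 reads (9.42 to 11.8%), with the seed GCAGUGU. It was 20.7% in occipital lobe (15.6 to 27.1%) and 11.2% in spinal cord (9.75 to 12.9%), against 2.33% in lung (0.908 to 5.83%). In the other 9 profiles it ranged from 2.63% in small intestine 1 (38 reads) to 17.1% in large intestine 2 (76 reads), so that the neural and the other profiles overlapped. Over all 371 tested miRNAs, the median share of reads that began within 3 bases of the listed start but not at it was 2.13%, with quartiles of 0.362 and 17.1%.

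Added 3' bases were seen on all of the abundant 5' arms. Over all 371 tested miRNAs their median share was 21.9%, and 28.0% in lung over the 290 with at least 20 reads. An added base or 2 was seen on 41.5% of mml-mir-34a-5p reads in lung (Wilson interval 35.9 to 47.3%) and on 15.5% in spinal cord (13.9 to 17.3%). For mml-mir-34c-5p these shares were 17.9% (16.6 to 19.2%) and 7.02% (5.16 to 9.49%), and for the 5' arm of mml-mir-34b 12.97% and 8.33%. Over the 274 tested miRNAs with at least 20 reads in both profiles, lung exceeded spinal cord by a median of 8.16 percentage points (quartiles 1.43 and 14.9), so that lung had more added bases over the tested miRNAs as a whole. A base that the pre-miRNA has at the same place cannot be seen as added, such as C after the form of mml-mir-34c-5p with 22 bases, so that the bases are not comparable between members. In lung the added base that could be seen was mostly C on mml-mir-34a-5p (26.6% of reads, with 9.93% for A) and on the 5' arm of mml-mir-34b (11.6%, with 0.720% for A), and mostly A on mml-mir-34c-5p (11.7%, with 1.79% for C). On mml-mir-449a-5p it was C in 20.6% and A in 13.6%, where 46 reads with C also fit mml-mir-449b-5p.

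The same reads were examined as mutation and editing sites, positions at which a read differs from its pre-miRNA. A site was called with at least 10 changed reads, a level of at least 5% and an adjusted binomial p under 0.05 against an error rate of 0.001. On the 5 pre-miRNAs, 17 of 217 sites with at least 1 changed read were called, beside 9.03% of the 30880 sites on all pre-miRNAs. When alignments with added 3' bases were not allowed, 1 of the family's sites was called. The count over all pre-miRNAs at that setting is not given, so that the drop is not shown to be particular to the family. The 1 called site rested on a read that fits mml-mir-449a-5p with an added C as well as mml-mir-449b-5p with another first base. The origin of this read cannot be told apart. This read, uggcaguguauuguuagcuggC with the added base in capitals, was seen 49 times, 46 of them in lung. It was not counted for either member in the levels above.

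By a fixed rule, the 3 miRNAs outside the family with the most similar pattern were found for each of the 4 abundant 5' arms, from the Pearson r of log2 levels over the 12 profiles. For mml-mir-34a-5p these were miR-135a-5p (r = 0.93), miR-887-3p (0.92) and miR-421-3p (0.88). All 3 were highest in spinal cord, as was mml-mir-34a-5p, with 84.1, 149 and 996 RPTM. For mml-mir-34c-5p they were miR-93-5p (0.79), miR-151-3-3p (0.77) and miR-25-3p (0.76), and for the 5' arm of mml-mir-34b miR-19b-3p (0.86), miR-93-5p (0.78) and miR-150-3p (0.77). For mml-mir-449a-5p they were miR-130a-3p (0.76), miR-652-3p (0.73) and miR-223-3p (0.71). The last is abundant in myeloid cells and had 816 RPTM in lung and at most 134 RPTM elsewhere. None of these r values reached the 0.94 between the 5' arm of mml-mir-34b and mml-mir-34c-5p. The points share library and depth, and r over 12 profiles is given as a description.

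mml-mir-34a, mml-mir-34b and mml-mir-34c are among the miRNAs that p53 raises, and the list of these was counted as a whole. Of 15 tested mature sequences on the list, 1 was called higher in lung (6.47% of all 371), which was the member mml-mir-34c-5p, and 4 were called lower (8.89% of all). In neural tissue 2 were higher (43.7% of all), mml-mir-34a-5p and mml-mir-107-3p, and 9 were lower (24.3% of all), with a median log2 fold change of -2.25 beside 0.89 over all 371 miRNAs. The most abundant of the list were mml-mir-143-3p, a miRNA of smooth muscle, and mml-mir-192-5p and mml-mir-215-5p, miRNAs of the intestinal epithelium. Their log2 fold changes in neural tissue were -2.77 (adjusted p = 0.00397), -4.01 (adjusted p = 0.000437) and -5.34 (adjusted p = 7.37e-05).

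Marker miRNAs were counted in the same fit, in which 6.47% of all miRNAs were higher in lung and 43.7% were higher and 24.3% lower in neural tissue. Of 12 tested epithelial markers, 6 were called higher and none lower in lung, with a median log2 fold change of 1.66 beside -0.27 over all miRNAs. Of the 3 most abundant, mml-mir-141-3p was called higher in lung (3.48, adjusted p = 0.00124). The other 2, mml-mir-182-5p (0.21) and mml-mir-375-3p (1.68), were not called there. In neural tissue 7 of the 12 were lower, although mml-mir-182-5p was not called (-1.54, adjusted p = 0.120). Of 6 immune cell markers 3 were higher in lung, as was the endothelial marker mml-mir-126-3p (2.75, adjusted p = 7.46e-05). All 13 neuron markers and all 4 glia markers tested were higher in neural tissue, and 1 and 0 of them were higher in lung. No smooth muscle, skeletal muscle, hepatocyte or intestinal epithelium marker (4, 8, 2 and 6 tested) was higher in lung or in neural tissue at this threshold.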

How the data were processed

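Small RNAs of total RNA were sequenced by the authors on an Illumina sequencer. They required scores of at least 30 over the first 25 nucleotides, trimmed adapters from the 3' side, kept sequences of at least 18 nucleotides and deposited raw counts per unique sequence, 1 list per profile, without normalization. Versions of the tools for these steps are not given in the sources used here. The reads were not aligned to the genome here, and reads from other loci could not be removed.

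Sequences were aligned without gaps to the 832 pre-miRNAs readable in the study's list (Mmul_8.0.1), and 1 mismatch and 1 or 2 added 3' bases were allowed. For levels, reads without mismatch were counted if neither end was more than 2 nucleotides from that of a mature sequence, for every mature sequence they fit. This window leaves out shorter mml-mir-34c-5p reads. Of the mature sequences, 7 were not found in their pre-miRNA and were skipped. Groups came from the sample labels. Counts were tested in edgeR 4.0.16 (R 4.3.3, limma 3.58.1) with TMM factors, and the SE was the fold change divided by the square root of F. DESeq2 1.42.0, other scales, rules of assignment, filters and groups, a replicate block and leaving out 1 profile at a time were alternatives. Python 3.11.15 with numpy 2.4.6, pandas 2.3.3 and scipy 1.17.1 was used for the rest. The scripts were tested on simulated data.

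The members, lists and tests were chosen with earlier results of these data known. The text describes all arms of the members, the 3 miRNAs most like each arm averaging 5 RPTM or more, and up to 3 examples per list with the highest mean level. The 5' arm of mml-mir-34b and the count of reads with any 3' end were added after seeing the data, and mml-mir-107-3p was named after its values were seen.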

Additional observations from a re-analysis of the deposited data

How the results depend on the processing

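mml-mir-34c-5p kept its calls in lung and between lung and neural tissue under the 8 alternatives run and with any of 11 profiles left out, lung itself excepted (log2 fold change in lung 5.30 to 6.80). The fitted change of mml-mir-449a-5p in lung was 6.10 to 7.68 over the 7 alternatives it could be fitted in (not identical reads only) and the same omissions. For the 5' arm of mml-mir-34b the 1 alternative run was valid reads (7.26). The neural call of mml-mir-34a-5p was lost only without spinal cord. mml-mir-34c-5p was called in neural tissue with valid reads, with all miRNAs of at least 10 reads and with identical reads only, and without lung or occipital lobe. For mml-mir-34c-5p in lung too, the fit of all miRNAs of at least 10 reads gave a far lower p-value than the main fit. Calls from that fit have the limit given above. The log2 fold change of mml-mir-34a-5p in lung, near 0, turned positive with valid reads (0.63), DESeq2 (0.057), all miRNAs with at least 10 reads (0.22), mismatches and tails (0.40), reads of 1 mature sequence (0.039), any 3' end (0.0012) and 8 groups (0.070), never with a call, and ranged from -0.13 to 0.27 with 1 profile left out. That of mml-mir-449a-5p in neural tissue turned to 0.85 with valid reads and 0.16 with mismatches and tails, and ranged from -1.24 to 0.94 with 1 profile left out. With 1 profile left out, mml-mir-34c-5p in neural tissue ranged from -1.32 to 2.53, mml-mir-34a-5p between lung and neural tissue from -2.43 to 0.016, and mml-mir-34c-5p in kidney from -5.54 to -2.52.

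The miRNAs called higher in lung numbered 63 with valid reads, 55 with all miRNAs of at least 10 reads, 46 with 8 groups and 22 to 42 with 1 profile left out, and those called lower 13 with valid reads, 55 with DESeq2, 16 with identical reads and 17 to 48. In neural tissue 106 were higher with identical reads, and with valid reads 232 were higher and 46 lower. Between lung and neural tissue 64 were lower in lung with identical reads. The log2 ratios to mml-mir-34a-5p in neural tissue minus the others were -2.80 for mml-mir-34b-3p and -3.08 for mml-mir-449b-5p with identical reads, both with an adjusted exact p of 0.0303, and that of mml-mir-34a-5p to mml-mir-34a-3p turned to 2.80. mml-mir-34b-3p and mml-mir-34a-3p had no identical read and mml-mir-449b-5p had 3, so that these 3 values reflect the mml-mir-34a-5p counts. With 1 profile left out the ratio of mml-mir-34c-5p ranged from -0.90 to 0.34, that of mml-mir-449a-5p from -3.83 to 0.28 and that of mml-mir-449b-5p from -4.85 to 1.58. The called sites of the family numbered 8 with at least 50 changed reads and 1 without tails. Counts over all pre-miRNAs at these settings are not given, so that the drop is not shown to be particular to the family. Where no reason is given, the cause was not tested.

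The kidney call of mml-mir-34c-5p was lost with valid reads (-3.81, adjusted p = 0.0505). The replicate block could be fitted on the 8 numbered profiles only, where its log2 fold change was -1.11 with the block (adjusted p = 0.324) and -1.23 without it (adjusted p = 0.275). Profiles with the same number did not deviate together (correlations over 304 miRNAs between -0.207 and 0.180 in 6 pairs of tissues). A small effect of a shared animal could give such values, so that they cannot decide whether the numbers mark animals. Lung, liver and each neural tissue had 1 profile, and counts of 5 or fewer limit the miR-449 members outside lung.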
